A study of Mus musculus with 12 samples.

Results

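The data describe 41 genes of mitosis and chromosome segregation, all of them found among the 38215 genes of the count table and all of them kept by the filter on low counts that left 14983 genes to be tested. They were chosen as a list of symbols and grouped by role in mitosis, for a known role and not by a cutoff on measured values. Earlier results of these data were known when the list was written. The same genes hold 1036 of 354841 exon bins, the pieces into which an annotation cuts the exons of a gene, and the bins of Cdca5 were examined first because this cohesion factor is known to need splicing. RNA came from RAW264.7, an established mouse macrophage line. Cultures received a control siRNA or an SF3A1 siRNA for 24 h, and each was then left without LPS or exposed to 20 ng/ml of LPS, the bacterial lipopolysaccharide sensed by Toll-like receptor 4, for 4 h, with 3 libraries in each of the 4 groups. The study asked how the spliceosome subunit SF3a1 shapes the macrophage response to LPS. Polyadenylated RNA was sequenced, and reads were counted per gene and per bin. Gene reads ranged from 12746019 to 41091887 per library, with the deepest libraries in replicate 1 of the 4 groups, so that low genes were measured with less counting error there. Nothing in the labels says how far replicates were separate cultures, and p-values measure the spread between these libraries.

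A cell entering mitosis activates cyclin B with Cdk1, condenses its chromosomes with topoisomerase II and condensin, and attaches each chromosome to the spindle through the kinetochore. The spindle checkpoint holds back the anaphase-promoting complex until all chromosomes are attached, after which securin and cyclin B are destroyed, separase opens the cohesin rings, and the central spindle guides cytokinesis. The transcripts of most of these proteins are known to be low in G1 and to accumulate toward G2 and M, and in macrophages LPS is known as a signal that stops growth. RAW264.7 is a transformed line that divides continuously, and its division need not stand for that of primary macrophages.

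Sf3a1 itself was measured first. The level of Sf3a1 was 173, 216 and 185 CPM with control siRNA, 150.02, 194 and 157 with control siRNA and LPS, 27.1, 27.5 and 32.1 with SF3A1 siRNA, and 30.3, 26.7 and 45.05 with SF3A1 siRNA and LPS, where CPM are counts scaled to the gene reads of each library after TMM normalization. The 6 libraries with SF3A1 siRNA were all below the 6 libraries with control siRNA, and the level with SF3A1 siRNA was 15.1% of the control without LPS (log2 fold change -2.73 ± 0.20 (SE), edgeR adjusted p = 1.14e-05) and 20.4% with LPS (log2 fold change -2.30 ± 0.20, edgeR adjusted p = 1.47e-05). All 8 macrophage markers were detected in each of the 12 libraries, with a summed level of 9834 to 16477 CPM and Lyz2 as the most abundant, while the fibroblast, epithelial, T cell and B cell markers summed to at most 0.763 CPM per list and library and none passed the filter.

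Several features set libraries apart before any comparison. In replicate 1 of control siRNA with LPS, the 41 genes took 0.235% of gene reads, against 0.460 and 0.443% in replicates 2 and 3 of that group. Mitochondrial genes took 0.581 to 0.760% of gene reads with control siRNA, 0.552 to 0.673% with control siRNA and LPS, 0.908 to 1.53% with SF3A1 siRNA, and 0.991 to 1.31% with SF3A1 siRNA and LPS. Reads outside annotated genes were 17.8 to 19.6%, 17.8 to 19.8%, 20.8 to 27.2% and 18.2 to 21.4% in the same order of groups. The mitochondrial share was higher in all 6 SF3A1 siRNA libraries than in the 6 with control siRNA, the share outside genes overlapped between siRNAs only with LPS, and their part in the results was not tested.

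Summed over the 41 genes, the level was 6482, 7920 and 7268 CPM with control siRNA, 2545, 4765 and 4583 CPM with control siRNA and LPS, 2715, 2150 and 1969.9 CPM with SF3A1 siRNA, and 1635, 1371 and 1571 CPM with SF3A1 siRNA and LPS. The untreated control libraries were the highest, and the 3 libraries with both treatments were the lowest. Replicate 1 of control siRNA with LPS lay within the range of SF3A1 siRNA without LPS, and the other libraries of those groups did not overlap. Relative to the control mean of 7223 ± 720 CPM (SD, n = 3), the group means were 54.9% with LPS, 31.5% with SF3A1 siRNA and 21.1% with both. In bulk RNA, fewer cells in G2 and M and less of these RNAs per cell cannot be told apart.

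**Figure D1:**
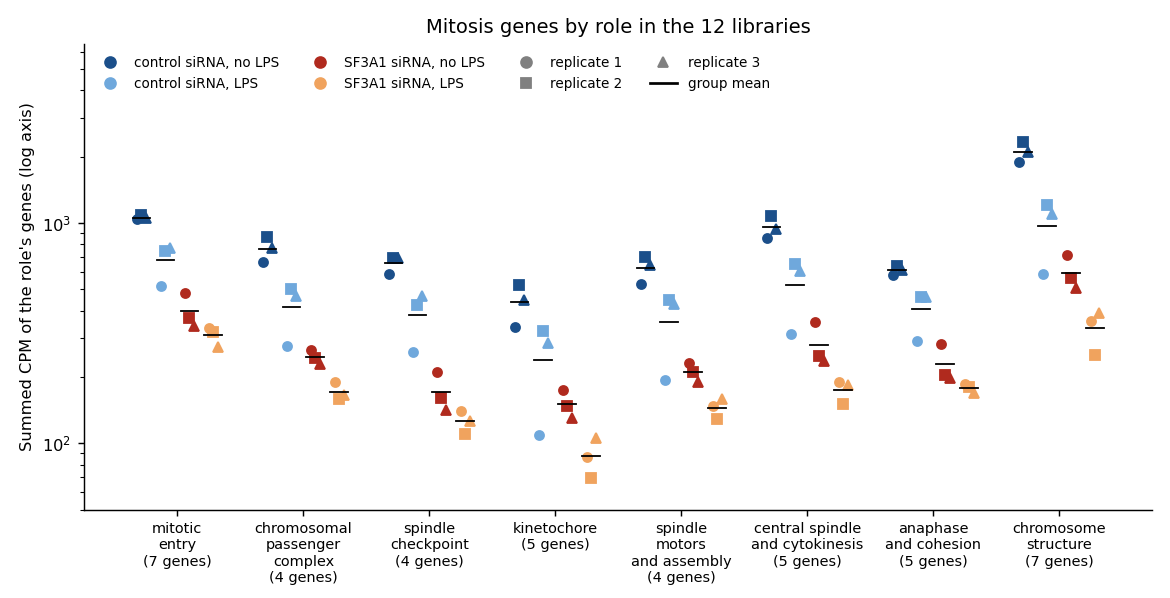
Summed level (CPM, log axis) of the genes of 8 mitotic roles in each of the 12 libraries, with 1 symbol per library, colour for the group, shape for the replicate number and a line at the group mean. In every role the control libraries without LPS are highest, and control siRNA with LPS replicate 1 is the lowest of its group.

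In the absence of LPS, all 41 genes were lower with SF3A1 siRNA than with control siRNA at an edgeR adjusted p of at most 0.1, against a background of 20.1% of all genes tested that were called lower (13.7% were called higher). Their log2 fold changes ran from -2.65 to -1.05 with a median of -1.78, while the median over all genes tested was -0.02. For all 41 genes the 3 SF3A1 siRNA libraries were below the 3 control libraries, which held in this direction for 25.4% of all genes tested. In the presence of LPS, 40 of the 41 genes were lower with SF3A1 siRNA (background 20.4% lower and 18.4% higher), with a median log2 fold change of -1.50 against -0.04 over all genes, and 34 had groups that did not overlap (background 21.1%). The gene that was not called was Cdca5. Within replicate numbers, the summed level with SF3A1 siRNA was 41.9, 27.2 and 27.1% of control without LPS for replicates 1, 2 and 3, and 64.2, 28.8 and 34.3% with LPS. Replicate 1, the number whose 4 libraries are marked in the names of the deposited exon counts as joining 2 runs, gave the smaller reduction in both, and with LPS 38 of its 41 genes were lower and 3 higher.

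LPS also lowered most of these transcripts. With control siRNA, 35 of the 41 genes were lower after LPS (background 18.3%) and none higher (background 13.8%), and the median log2 fold change was -0.90 against -0.02 over all genes tested. In 35 genes the groups did not overlap (background 23%). Not called were Pttg1 (log2 fold change 0.11), Cenpe (-0.28), Ube2c (-0.30), Cdk1 (-0.39), Tpx2 (-0.56) and Cdca8 (-0.68). With a block for the replicate number, Tpx2 (log2 fold change -0.59, edgeR adjusted p = 0.0239) and Cdca8 (-0.69, adjusted p = 0.00613) were called lower too. The count was 26 without control siRNA replicate 2 (background 14.8%) and 29 without control siRNA replicate 3 (14.6%). It was also 29 without control siRNA with LPS replicate 1 (17.8%), the low library named above. Within replicate numbers the summed level after LPS was 39.3, 60.2 and 63.1% of that without. Both LPS and SF3A1 siRNA comparisons without the other treatment use the same 3 control libraries, so their values are not independent of each other.

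With SF3A1 siRNA already present, 9 of the 41 genes were lower after LPS (background 4.06%) and none higher (background 6.6%). These were Ttk, Ncapd2, Mki67, Ncaph, Ect2, Kif23, Kif4, Anln and Plk1, and the median of the 41 log2 fold changes was -0.54 against 0.01 over all genes tested. In 29 genes the groups did not overlap (background 11.5%). This count rested on single libraries: it was 2 without SF3A1 siRNA replicate 1 (background 2.00%), 2 without SF3A1 siRNA with LPS replicate 2 (1.85%), 5 without replicate 3 of the same group (3.37%), and 23 without control siRNA with LPS replicate 1 (5.52%), a library outside this comparison that enters the shared fit. In a model with the replicate block, 22 genes were lower (background 9.48%). Within replicate numbers, the summed level after LPS was 60.2, 63.8 and 79.8% of that without.

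**Figure D2:**
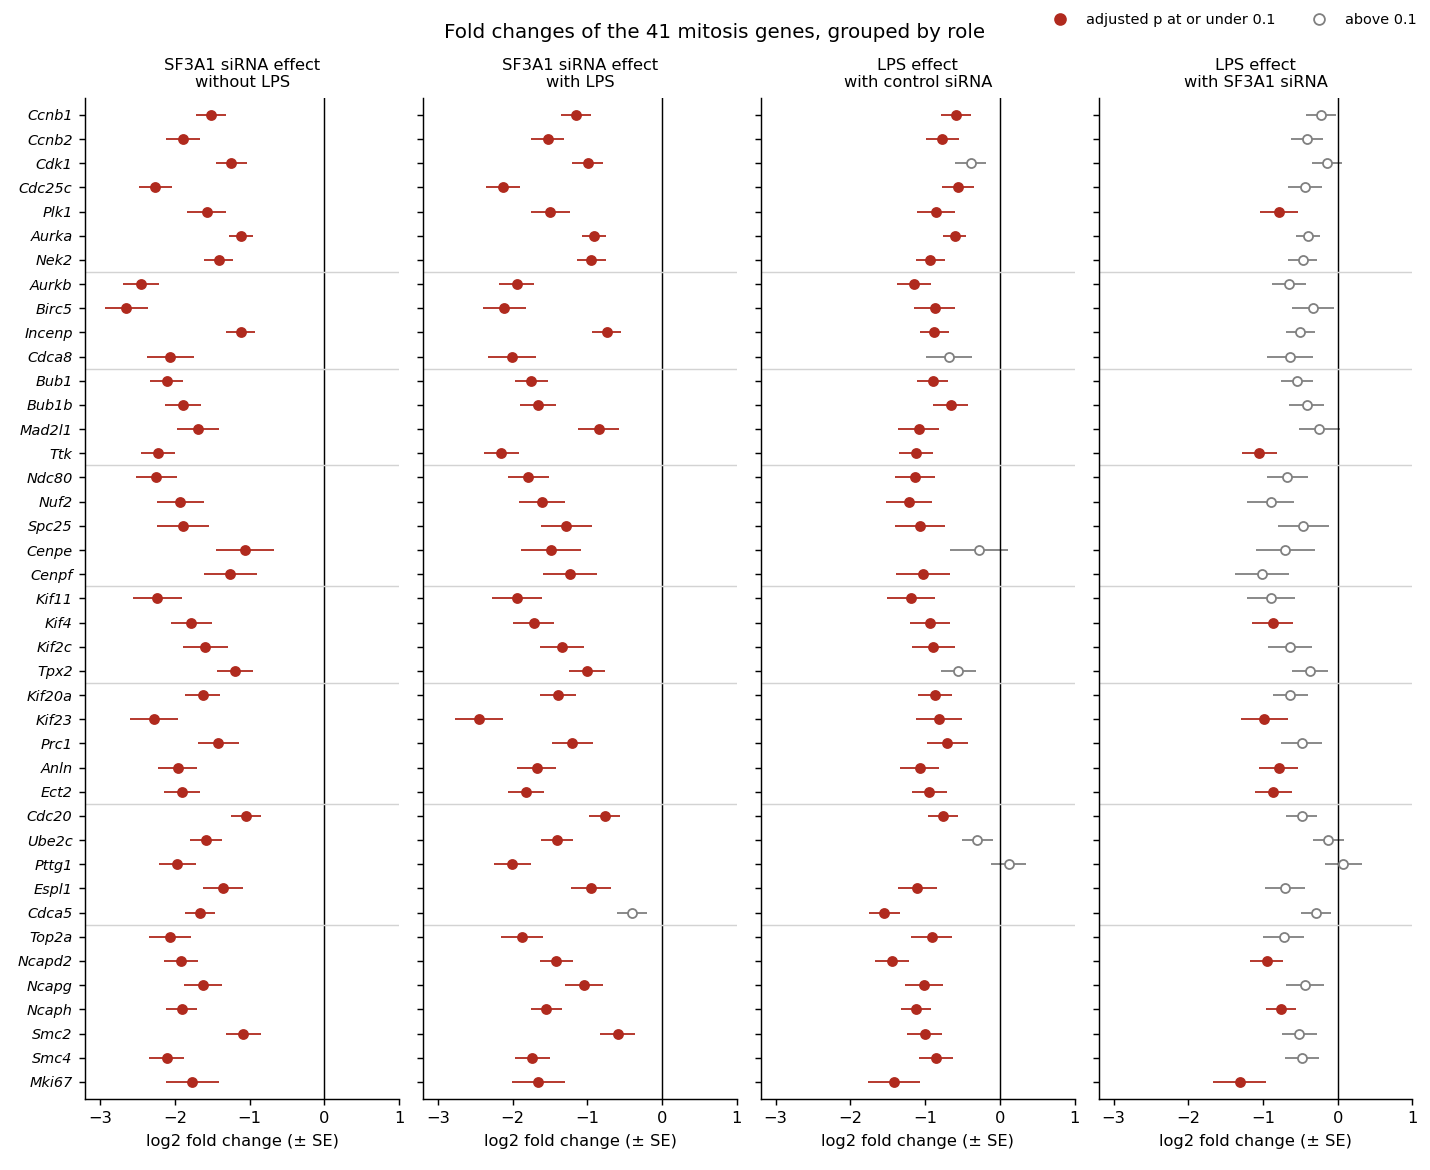
Log2 fold change ± SE of each of the 41 genes, ordered by role, in 4 comparisons, with filled points for an edgeR adjusted p of at most 0.1. All points of the first panel are filled and left of 0, 40 are filled in the second, 35 in the third and 9 in the last.

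Mitotic entry was represented by Ccnb1, Ccnb2, Cdk1, Cdc25c, Plk1, Aurka and Nek2, whose summed level was 1058 ± 24.6 CPM in control libraries, 678 ± 140 with LPS, 398 ± 74.3 with SF3A1 siRNA and 309 ± 32.6 with both (SD, n = 3 each). All 7 were lower with SF3A1 siRNA without and with LPS, with medians of -1.52 and -1.15 on the log2 scale. Cdc25c, the phosphatase that activates Cdk1, was at 33.7, 29.9 and 32.2 CPM with control siRNA, 18.4, 21.7 and 24.8 with control siRNA and LPS, 8.42, 4.35 and 7.14 with SF3A1 siRNA, and 4.63, 5.26 and 4.91 with SF3A1 siRNA and LPS. Its control libraries were all above its LPS libraries, and these above both SF3A1 siRNA groups, which overlapped. Without LPS Cdc25c fell with SF3A1 siRNA to 20.9% of control (log2 fold change -2.26 ± 0.23 (SE), edgeR adjusted p = 4.39e-05), and with LPS to 22.8% (-2.13 ± 0.23, edgeR adjusted p = 4.93e-05). Its lower level after LPS with control siRNA (-0.56 ± 0.21, edgeR adjusted p = 0.0718) was no longer called without any 1 of the 3 control libraries or of replicates 1 and 2 with LPS, where the log2 fold change was -0.46 to -0.60.

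Aurka, the kinase of centrosome maturation and spindle assembly, had the highest level per kilobase of exon of this role over the 12 libraries, 92.6 CPM per kb in control libraries. It was at 268, 228 and 207 CPM with control siRNA, 140.4, 167 and 155 with control siRNA and LPS, 130.3, 97.7 and 95.7 with SF3A1 siRNA, and 90.1, 82.4 and 73.6 with SF3A1 siRNA and LPS. Control libraries were the highest and those with both treatments the lowest, with no overlap between any pair of the 4 groups. Aurka fell with SF3A1 siRNA by 1.12 on the log2 scale without LPS (edgeR adjusted p = 0.000342) and by 0.91 with LPS (adjusted p = 0.00108). Plk1, the kinase that drives entry and centrosome separation, fell with SF3A1 siRNA (-1.57 ± 0.26, edgeR adjusted p = 0.000872, without LPS). For the cyclin B transcripts, the log2 fold change was -1.52 for Ccnb1 and -1.89 for Ccnb2 without LPS, and Cdk1, their kinase partner, fell by 1.25 to 109 ± 19.2 CPM (SD, n = 3). Nek2, the centrosome kinase, had log2 fold changes of -1.41 without and -0.95 with LPS, both called.

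The chromosomal passenger complex joins the kinase Aurora B (Aurkb) to survivin (Birc5), borealin (Cdca8) and the scaffold Incenp, and corrects faulty attachments at the centromere. Its summed level was 765 ± 99.9 CPM in control libraries, 415 ± 121 with LPS, 246 ± 18.5 with SF3A1 siRNA and 172 ± 16.7 with both. Aurkb was at 138, 145 and 126 CPM with control siRNA, 47.3, 70.8 and 65.6 with control siRNA and LPS, 33.4, 22.7 and 18.2 with SF3A1 siRNA, and 19.2, 13.2 and 15.2 with SF3A1 siRNA and LPS. The 4 groups were ordered control, LPS, SF3A1 siRNA and both, and only the last pair overlapped. Aurkb fell with SF3A1 siRNA to 18.3% without LPS (log2 fold change -2.45 ± 0.24 (SE), edgeR adjusted p = 3.83e-05, the smallest of the 41 genes) and to 25.98% with LPS (-1.94 ± 0.23, edgeR adjusted p = 0.000102), and with LPS alone to 44.9% (-1.16 ± 0.23, edgeR adjusted p = 0.00203). Birc5 had the largest change of the 41 genes without LPS (-2.65 ± 0.29, edgeR adjusted p = 7.68e-05). Incenp, the member of the complex with the highest level per kilobase (84.1 CPM per kb in control libraries), was at 345, 402 and 344 CPM with control siRNA, 139.5, 245 and 211 with control siRNA and LPS, 178, 165 and 158 with SF3A1 siRNA, and 141, 99.7 and 114 with SF3A1 siRNA and LPS. Its fall with SF3A1 siRNA was smaller (-1.12 ± 0.20, edgeR adjusted p = 0.00123, without LPS; -0.74 ± 0.20, edgeR adjusted p = 0.012, with LPS), and with LPS the groups overlapped through the low library of control siRNA with LPS.

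Spindle checkpoint genes had a summed level of 659 ± 59.9 CPM in control libraries and 171 ± 36.01 with SF3A1 siRNA, 26.01% of control and the lowest share of the 8 roles in that comparison. Ttk, the Mps1 kinase that starts the checkpoint signal at unattached kinetochores, was at 41.4, 58.6 and 50.1 CPM with control siRNA, 16.5, 23.9 and 28.7 with control siRNA and LPS, 11.6, 10.8 and 9.67 with SF3A1 siRNA, and 5.09, 4.11 and 6.26 with SF3A1 siRNA and LPS. None of the 4 groups overlapped another. It fell in all 4 comparisons: with SF3A1 siRNA without LPS (-2.22 ± 0.23, edgeR adjusted p = 5.31e-05) and with LPS (-2.15 ± 0.23, edgeR adjusted p = 5.78e-05), and after LPS with control siRNA (-1.12 ± 0.22, edgeR adjusted p = 0.00218) and with SF3A1 siRNA (-1.05 ± 0.23, edgeR adjusted p = 0.0142). Bub1, the kinase that Ttk helps to recruit, was at 122, 161 and 164 CPM with control siRNA, 57.05, 83.9 and 98.5 with control siRNA and LPS, 42.3, 30.5 and 30.3 with SF3A1 siRNA, and 24.4, 20.7 and 25.8 with SF3A1 siRNA and LPS, again with no overlap between groups, and fell with SF3A1 siRNA by 2.11 without and 1.75 with LPS on the log2 scale (edgeR adjusted p = 5.44e-05 and 0.000122). Bub1b, whose product BubR1 inhibits the anaphase-promoting complex, had the highest level per kilobase of the role (89.98 CPM per kb in control libraries) and was at 371, 391 and 392 CPM with control siRNA, 166, 276 and 291 with control siRNA and LPS, 134, 94.6 and 80.9 with SF3A1 siRNA, and 92.02, 62.1 and 77.6 with SF3A1 siRNA and LPS. No control siRNA library was below any SF3A1 siRNA library, and the pair of SF3A1 siRNA groups overlapped. Bub1b fell with SF3A1 siRNA (-1.90 ± 0.24, edgeR adjusted p = 0.000166, without LPS), while its lower level after LPS (-0.66 ± 0.23, edgeR adjusted p = 0.0561) was not called without any 1 of the control libraries or without control siRNA with LPS replicate 1 (log2 fold change -0.44 to -0.66). Mad2l1, the Mad2 subunit of the checkpoint inhibitor, fell by 1.69 without LPS and by 0.85 with LPS on the log2 scale, and the latter was not called without control siRNA with LPS replicate 2 or 3 or SF3A1 siRNA with LPS replicate 3 (-0.61 to -0.76).

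At the kinetochore, Ndc80, Nuf2 and Spc25 belong to the complex that grips microtubules, Cenpe is a motor that carries chromosomes to the equator, and Cenpf is a large outer protein. Their summed level was 436 ± 93.1 CPM in control libraries, 239 ± 114 with LPS, 151 ± 21.6 with SF3A1 siRNA and 87.1 ± 17.8 with both. Spc25, the one with the highest level per kilobase, was at 42.5, 75.4 and 65.5 CPM with control siRNA, 12.6, 34.02 and 41.1 with control siRNA and LPS, 15.8, 16.6 and 17.04 with SF3A1 siRNA, and 10.8, 13.00 and 12.03 with SF3A1 siRNA and LPS. The control libraries were the highest, and replicate 1 of control siRNA with LPS lay below the SF3A1 siRNA libraries without LPS. The 3 Ndc80 complex genes fell with SF3A1 siRNA by 2.25, 1.93 and 1.89 on the log2 scale without LPS (Ndc80, Nuf2 and Spc25). Cenpe and Cenpf fell by 1.06 and 1.26, and the call of Cenpe (edgeR adjusted p = 0.0628) was lost without control siRNA replicate 2 or 3 or SF3A1 siRNA replicate 2 or 3, where the log2 fold change was -0.83 to -1.05.

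Spindle motors and assembly factors had a summed level of 626 ± 87.2 CPM in control libraries and 211 ± 20.6 with SF3A1 siRNA. Kif11, the motor that pushes spindle poles apart, fell most (-2.24 ± 0.33, edgeR adjusted p = 0.000417, without LPS), followed by the chromokinesin Kif4 (-1.78), the depolymerising kinesin Kif2c (-1.59) and Tpx2 (-1.19), the activator of Aurora A. Tpx2, with the highest level per kilobase (57.2 CPM per kb in control libraries), was at 217, 300.1 and 285 CPM with control siRNA, 106, 224 and 216 with control siRNA and LPS, 118, 124 and 109 with SF3A1 siRNA, and 86.2, 84.9 and 99.9 with SF3A1 siRNA and LPS. Its SF3A1 siRNA libraries without LPS were all above replicate 1 of control siRNA with LPS and below all other control siRNA libraries.

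Central spindle and cytokinesis genes summed to 957 ± 110 CPM in control libraries, 523 ± 182 with LPS, 280 ± 64.9 with SF3A1 siRNA and 175 ± 20.98 with both. Kif20a, the kinesin that brings the passenger complex to the midzone, was at 284, 359 and 323 CPM with control siRNA, 111, 221 and 198 with control siRNA and LPS, 127, 99.1 and 86.2 with SF3A1 siRNA, and 73.2, 60.3 and 68.1 with SF3A1 siRNA and LPS. The control group and the group with both treatments stood clear of all others, and the low library with LPS lay among the SF3A1 siRNA libraries. Kif23, the motor of centralspindlin, had the largest change of the 41 genes with LPS present (-2.45 ± 0.32, edgeR adjusted p = 0.000163). Ect2, the exchange factor that switches on RhoA at the equator, was at 84.7, 101 and 92.96 CPM with control siRNA, 33.9, 55.96 and 55.3 with control siRNA and LPS, 31.2, 21.5 and 21.4 with SF3A1 siRNA, and 14.1, 9.91 and 16.8 with SF3A1 siRNA and LPS. None of its groups overlapped. It fell in all 4 comparisons, by 1.91 and 1.82 with SF3A1 siRNA without and with LPS and by 0.94 and 0.86 after LPS with control and SF3A1 siRNA (log2 scale), and the last call (edgeR adjusted p = 0.0498) was lost without SF3A1 siRNA replicate 1 or SF3A1 siRNA with LPS replicate 2 (-0.65 and -0.68). Prc1, which bundles midzone microtubules, and anillin (Anln), which scaffolds the contractile ring, fell by 1.42 and 1.96 with SF3A1 siRNA without LPS.

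Genes that act on chromosome structure showed the lowest share of control after both treatments, 15.8%, with summed levels of 2109 ± 229 CPM in control libraries, 965 ± 335 with LPS, 594 ± 108 with SF3A1 siRNA and 334 ± 72.4 with both. Top2a, the topoisomerase that untangles sister chromatids, had the highest level per kilobase of them (71.2 CPM per kb in control libraries) and was at 546, 732 and 648 CPM with control siRNA, 191, 430.3 and 402 with control siRNA and LPS, 186, 138 and 135 with SF3A1 siRNA, and 101, 69.3 and 108 with SF3A1 siRNA and LPS. No groups overlapped, and the low library with LPS was just above the highest SF3A1 siRNA library. Mki67, the Ki-67 coat protein of mitotic chromosomes, was at 526, 649 and 559.7 CPM with control siRNA, 120.05, 289 and 238 with control siRNA and LPS, 217, 158 and 134 with SF3A1 siRNA, and 75.6, 36.5 and 92.8 with SF3A1 siRNA and LPS. The low library with LPS lay below the SF3A1 siRNA libraries and above those with both treatments. Mki67 fell after LPS with control siRNA (-1.42 ± 0.35, edgeR adjusted p = 0.00866) and with SF3A1 siRNA (-1.31 ± 0.35, edgeR adjusted p = 0.0383), the latter not called without SF3A1 siRNA with LPS replicate 2 or SF3A1 siRNA replicate 1 (-1.01 and -1.10).

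Condensin I was followed through the subunits Ncapd2, Ncapg and Ncaph and the shared ATPases Smc2 and Smc4. Ncapd2 was at 329, 303 and 302 CPM with control siRNA, 77.9, 142 and 123.1 with control siRNA and LPS, 105, 80.1 and 62.3 with SF3A1 siRNA, and 42.03, 38.9 and 47.3 with SF3A1 siRNA and LPS. The LPS and SF3A1 siRNA groups overlapped, between higher control libraries and lower libraries with both treatments. Among the 41 genes its fall after LPS with control siRNA (-1.45 ± 0.22, edgeR adjusted p = 0.000377) was second in adjusted p to that of Cdca5, and it fell further with SF3A1 siRNA present (-0.95 ± 0.22, edgeR adjusted p = 0.0202). Ncaph, the subunit that closes the ring, was at 116, 119 and 109 CPM with control siRNA, 40.7, 59.6 and 58.4 with control siRNA and LPS, 38.8, 24.7 and 27.97 with SF3A1 siRNA, and 21.2, 14.8 and 17.95 with SF3A1 siRNA and LPS, with no overlap between the groups. Ncaph fell with SF3A1 siRNA (-1.91 ± 0.21, edgeR adjusted p = 7.1e-05, without LPS; -1.55 ± 0.21, edgeR adjusted p = 0.000181, with LPS) and with LPS (-1.12 ± 0.20, edgeR adjusted p = 0.0012). Smc4 and Ncapg fell with SF3A1 siRNA without LPS by 2.11 and 1.63 and Smc2 by 1.09, and the smaller change of Smc2 with LPS (-0.59 ± 0.23, edgeR adjusted p = 0.0722) was not called without any 1 of 5 libraries, where it was -0.40 to -0.64.

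Cdc20 activates the anaphase-promoting complex, Ube2c is its ubiquitin-conjugating enzyme, Pttg1 is securin, Espl1 is separase, and Cdca5 is sororin, which protects cohesin on replicated chromatids. Ube2c had the highest level per kilobase (77.7 CPM per kb in control libraries) and was at 180.1, 209.6 and 217 CPM with control siRNA, 116, 186 and 189.9 with control siRNA and LPS, 84.1, 62.5 and 55.4 with SF3A1 siRNA, and 60.8, 69.6 and 54.9 with SF3A1 siRNA and LPS. Its levels in control siRNA libraries with and without LPS overlapped, as did those of the pair of SF3A1 siRNA groups, and the control siRNA libraries were all above the SF3A1 siRNA libraries. Pttg1 was at 50.5, 62.3 and 78.4 CPM with control siRNA, 51.6, 71.2 and 84.3 with control siRNA and LPS, 16.99, 19.01 and 12.8 with SF3A1 siRNA, and 13.3, 21.8 and 16.6 with SF3A1 siRNA and LPS. It showed the same separation by siRNA and not by LPS: the log2 fold change was -1.97 ± 0.25 (SE), edgeR adjusted p = 0.000172, for SF3A1 siRNA without LPS, -2.00 ± 0.25, edgeR adjusted p = 0.000122 with LPS, and 0.11 ± 0.24, edgeR adjusted p = 0.788 for LPS with control siRNA. Espl1 and Cdc20 fell with SF3A1 siRNA by 1.35 and 1.05 on the log2 scale without LPS, and after LPS with control siRNA by 1.10 and 0.76.

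Cdca5 was lower after either treatment alone. It lies on chromosome 19, plus strand, chr19:6084983-6091777 (mm10), and was at 55.1, 55.4 and 54.5 CPM with control siRNA, 16.6, 18.6 and 21.3 with control siRNA and LPS, 21.2, 15.1 and 15.6 with SF3A1 siRNA, and 18.6, 12.8 and 11.1 with SF3A1 siRNA and LPS. The 3 control libraries were almost level and far above the other 9 libraries, whose 3 groups overlapped. LPS alone lowered Cdca5 to 34.2% of control (-1.55 ± 0.21, edgeR adjusted p = 0.000119, the smallest adjusted p of the 41 genes in that comparison), and SF3A1 siRNA alone to 31.5% (-1.66 ± 0.21, edgeR adjusted p = 0.000148). With LPS, SF3A1 siRNA gave a log2 fold change of -0.41 ± 0.20 (SE), edgeR adjusted p = 0.156, which passed the threshold under the replicate block (-0.43, adjusted p = 0.0784) and without SF3A1 siRNA with LPS replicate 1 (-0.65, adjusted p = 0.0274). Within replicate numbers 1, 2 and 3 this log2 ratio was 0.15, -0.50 and -0.88.

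The difference between the SF3A1 siRNA effects with and without LPS was tested as an interaction. Cdca5 was the 1 gene of the 41 that was called, higher by 1.26 ± 0.29 (SE), edgeR adjusted p = 0.044, and 1.54% of all genes tested were called in this direction (3.47% in either). Its value within replicate numbers was 1.49, 1.30 and 0.86. The call was lost without any 1 of the 3 control libraries without LPS or without SF3A1 siRNA replicate 2 or 3 (log2 difference 1.16 to 1.22), and kept with any other library left out. Its adjusted p over the alternatives ran from 0.00491 to 0.133. Of the 41 differences, 38 were positive and 3 negative with a median of 0.28, against 0.04 over all genes tested. Without control siRNA with LPS replicate 1 the median was 0.02, against 0.06 over all genes, and 18 were negative. With replicates 2 and 3 only, which leaves out that library and the 3 others of its number, the median was 0.23, against 0.05 over all genes, and 5 were negative. Within replicate numbers 1, 2 and 3, 39, 26 and 39 of the 41 differences were positive, with medians of 0.59, 0.09 and 0.30.

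**Figure D3:**
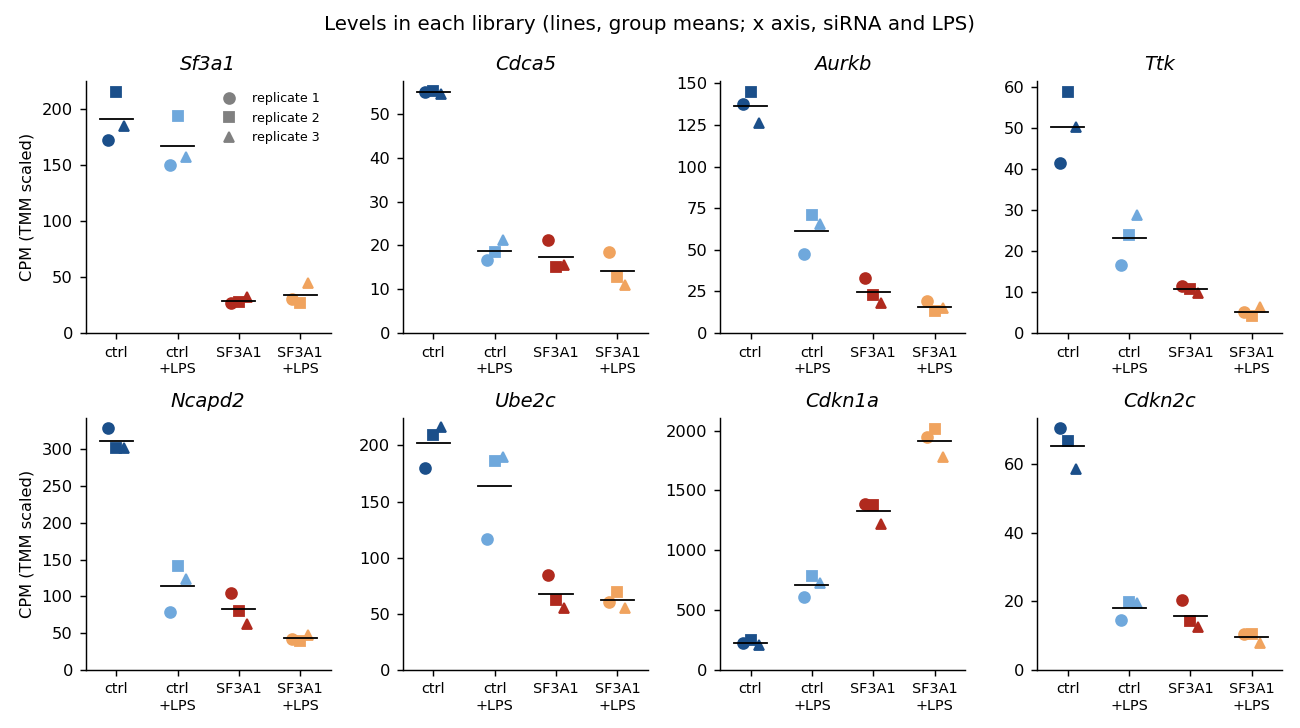
Level (CPM, linear axes from 0) in each library for the siRNA target Sf3a1, for 5 of the mitosis genes and for the CDK inhibitors Cdkn1a and Cdkn2c, with shape for the replicate number and lines at group means. Cdca5 has its 3 control libraries near 55 CPM and all others at or under 21.3 CPM, while Ube2c has its 6 control siRNA libraries above the 6 with SF3A1 siRNA and Cdkn1a is highest with both treatments.

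Over the 12 libraries, the Pearson r of each gene's log2 CPM with the mean z-score of the 41 genes, of which it is itself 1, was 0.844 for Pttg1, 0.892 for Cdca5 and 0.907 for Cenpe at the low end, and 0.998 for Kif20a at the high end. Outside the list, Dlgap5 (r = 0.994), Kif15 (0.993), Tacc3 (0.992) and Oip5 (0.992) were among the closest genes. These values describe a pattern over 4 groups that share libraries and are given without a test.

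Related genes were followed in 9 lists from general knowledge, written with earlier results of these data known. Their counts stand against the shares of all genes tested, 20.1% lower and 13.7% higher with SF3A1 siRNA without LPS, 20.4% lower and 18.4% higher with LPS, and 18.3% lower and 13.8% higher after LPS with control siRNA. Of 32 other kinetochore and centromere genes, SF3A1 siRNA lowered 29 without LPS and 27 in its presence (median log2 fold changes -1.51 and -1.05). Among them Cenpa, the centromeric histone H3 variant, fell without LPS (-1.48 ± 0.16, edgeR adjusted p = 6.97e-05), and Zwilch, of the complex that recruits dynein, fell without and with LPS (-2.37 and -2.13). After LPS with control siRNA, 21 of the 32 were lower and 1 higher (median -0.74). The higher one was Zwint, another outer kinetochore gene (0.46 ± 0.17, edgeR adjusted p = 0.0672), the only one of the 32 called higher in any of the 4 comparisons. This call was lost without control siRNA replicate 1 or 3 or control siRNA with LPS replicate 1.

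Cohesin holds replicated chromatids together, and 5 of its 13 genes were lower with SF3A1 siRNA without LPS (median -0.29) and 4 lower and 1 higher with LPS (median -0.16, background 20.4% lower and 18.4% higher). Esco2, the acetyltransferase that works with Cdca5 to establish cohesion, had the largest change of them in both: its level was 43.5 ± 2.46 CPM in control libraries, 7.23 ± 2.74 with LPS, 7.96 ± 1.82 with SF3A1 siRNA and 3.22 ± 1.20 with both (SD, n = 3), and it fell by 2.44 with SF3A1 siRNA and by 2.60 with LPS on the log2 scale. The cleavable subunit Rad21 fell by 0.72 with SF3A1 siRNA without LPS and by 0.81 with LPS alone. All 3 condensin II genes were lower with SF3A1 siRNA without LPS, Ncapg2 (-1.50 ± 0.21, edgeR adjusted p = 0.000271) and Ncapd3 (-1.31 ± 0.24, edgeR adjusted p = 0.00165) ahead of Ncaph2 (-0.58), and Ncapg2 and Ncapd3 with LPS, where the call of Ncapd3 was lost without control siRNA with LPS replicate 2 (-0.61, edgeR adjusted p = 0.127) or SF3A1 siRNA with LPS replicate 2 (-0.54, adjusted p = 0.1255).

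For the anaphase-promoting complex and its regulators, 13 of 17 genes were lower with SF3A1 siRNA without LPS (median -0.74) and 12 with LPS (-0.75), against backgrounds of 20.1 and 20.4%, while 4 were lower after LPS with control siRNA (background 18.3%). Of these 4 calls, those of Anapc2, Cdc23 and Anapc5 were lost without control siRNA replicate 1 (log2 fold change -0.28 to -0.39) or replicate 3 (-0.35 to -0.53). Cdc23, a scaffold subunit, was at 89.6 ± 3.80 CPM in control libraries, 70.8 ± 7.39 with LPS, 19.8 ± 1.56 with SF3A1 siRNA and 17.2 ± 1.92 with both, and fell with SF3A1 siRNA by 2.18 without and 2.04 with LPS (edgeR adjusted p = 6.51e-06 and 5.19e-06). Anapc7 (0.37) and Cdc26 (0.36) were called higher with SF3A1 siRNA in the presence of LPS (background 18.4%), and both calls were lost without any 1 of several libraries, among them control siRNA with LPS replicate 2. Of 12 further regulators of mitotic entry, 8 were lower with SF3A1 siRNA without LPS and 6 with LPS. They include the S and G2 cyclin Ccna2, which fell by 1.93 and 1.50, and the Cdk1 inhibitor Wee1, which fell by 1.55 without LPS.

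Of 18 factors that drive or repress G2 and M genes, 10 were lower with SF3A1 siRNA without LPS and 2 higher, against 20.1 and 13.7% of all genes tested. With LPS 3 were lower and 3 higher, shares near the 20.4 and 18.4% of all genes. After LPS with control siRNA 13 were lower and 0 higher (median -0.85, background 18.3% lower and 13.8% higher). Foxm1, an activator of these genes that was singled out after its values were seen, was at 238 ± 23.8 CPM in control libraries, 89.2 ± 9.15 with LPS, 134 ± 15.97 with SF3A1 siRNA and 92.7 ± 35.6 with both, and its log2 fold change with SF3A1 siRNA was -0.83 ± 0.22, edgeR adjusted p = 0.0157 without LPS and 0.06 ± 0.22, edgeR adjusted p = 0.882 with LPS. Rbl2, the p130 pocket protein of the repressing DREAM complex, rose with SF3A1 siRNA without LPS (0.85 ± 0.20, edgeR adjusted p = 0.00861) and with LPS (2.05 ± 0.22, edgeR adjusted p = 4.76e-05) and fell after LPS with control siRNA (-2.00 ± 0.22, edgeR adjusted p = 2.04e-05). E2f3 rose in both SF3A1 siRNA comparisons (0.60 and 1.07). Of 7 CDK inhibitors 4 passed the filter, and 1 was higher and 2 lower with SF3A1 siRNA without LPS, and 2 higher and 2 lower with LPS. Cdkn1a, the p21 inhibitor, was at 226, 247 and 209 CPM with control siRNA, 607, 785 and 723 with control siRNA and LPS, 1389, 1377 and 1222 with SF3A1 siRNA, and 1943, 2018 and 1779 with SF3A1 siRNA and LPS. No group overlapped another, and it rose by 2.55 with SF3A1 siRNA without LPS (edgeR adjusted p = 4.03e-06), by 1.44 with LPS, and by 1.63 with LPS alone (adjusted p = 2.53e-06), while Cdkn2c, the p18 inhibitor, fell by 2.05, 0.90 and 1.86. Cdkn2d, the p19 inhibitor, fell by 1.82 and 1.78 with SF3A1 siRNA without and with LPS. The call of Cdkn1b, the p27 inhibitor, which was higher with LPS (1.02 ± 0.35, edgeR adjusted p = 0.0438), was lost without control siRNA with LPS replicate 2 or SF3A1 siRNA with LPS replicate 1 (0.76 and 0.60, adjusted p = 0.1498 and 0.216).

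Genes of the G1 phase and of DNA replication allow a comparison with the earlier cell cycle. Of 8 G1 cyclins and kinases, 4 were lower and 2 higher with SF3A1 siRNA without LPS (median -0.44), 1 was lower and 1 higher with LPS (median 0.14, below the background of 20.4% lower and 18.4% higher), and 4 were lower and 1 higher after LPS with control siRNA (median -0.31). Those lower without LPS were the E cyclins Ccne1 (-1.13) and Ccne2 (-1.71) and the kinases Cdk2 (-0.78) and Cdk4 (-0.49), and none of these was called with LPS. Cyclin D1 (Ccnd1) rose with SF3A1 siRNA without LPS (1.03 ± 0.20, edgeR adjusted p = 0.00243) and with LPS (0.98 ± 0.20, edgeR adjusted p = 0.00285). Of 26 replication genes, 25 were lower with SF3A1 siRNA without LPS and 25 after LPS with control siRNA, with medians of -1.38 and -1.44, while in the presence of LPS SF3A1 siRNA left 9 lower and 3 higher (median -0.43, background 20.4% lower and 18.4% higher). The higher ones were the sliding clamp Pcna (0.56), the helicase subunit Mcm4 (0.56) and Gins3 (0.48), whose call was lost without control siRNA with LPS replicate 3 (0.40, edgeR adjusted p = 0.137), without SF3A1 siRNA with LPS replicate 1 (0.36, adjusted p = 0.152) and with no filter on low counts (adjusted p = 0.116). Cdc45, a partner of Mcm and GINS proteins in the active helicase, fell by 2.90 without and 2.14 with LPS. In the presence of LPS, 40 of the 41 mitosis genes and 9 of the 26 replication genes were thus lower, a contrast that was not tested.

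**Figure D4:**
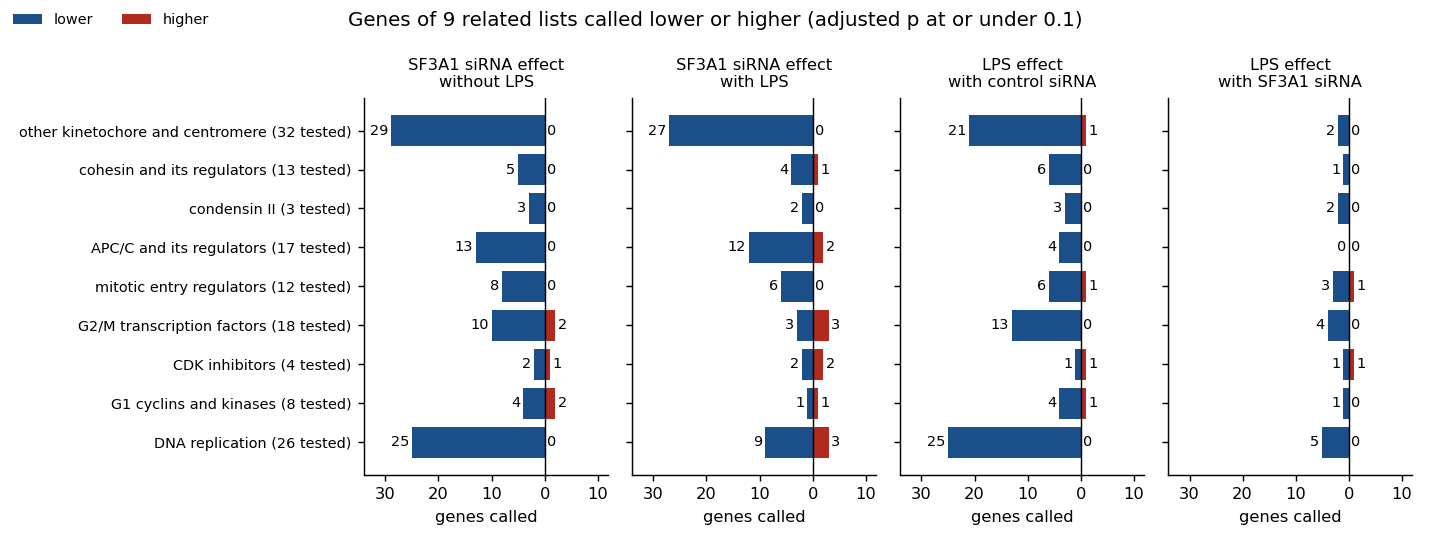
Number of genes called lower (blue, to the left) and higher (red, to the right) at an edgeR adjusted p of at most 0.1 in 9 lists of related genes and 4 comparisons, with the number tested beside each list name. The bar of DNA replication genes is 25 lower in the first panel and 9 lower and 3 higher in the second, while other kinetochore and centromere genes go from 29 to 27.

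Since most of these genes were lower in the same comparisons, their promoters were read from RefSeq (GRCm38.p6), 250 bases before to 50 bases after each start, for the 35 genes in the table used. Those with no entry were Aurkb, Cdc25c, Incenp, Kif20a, Smc4 and Tpx2. Ect2 and Prc1 each have overlapping windows from different starts. The 37 promoters thus stand for 35 genes, and the matches of Ect2 and Prc1 are counted once per window. The letters TTTGAA, the core of the cell cycle genes homology region, stood on either strand in 28 of 37 promoters (75.7%) against 17.9% of all 32851 promoters of the table, and CCAAT in 28 (75.7%) against 37.4%. Both occurred in 24 (64.9%) against 7.0%. Near the start, 27 of the 37 TTTGAA matches in 25 promoters lay between 50 bases before and 50 bases after it, and 40 of the 62 CCAAT matches in 24 promoters lay in the 100 bases before it. E2F-like letters were rarer: TTTCCCGC, TTTGGCGC and TTTCGCGC occurred in 1 promoter each (2.7%, against 1.1, 0.5 and 0.3%) and TTTGCCGC in 0. TTCGAA, a variant of the TTTGAA core, occurred in 3 (8.1% against 1.6%). All motifs were searched on both strands, and a TTTGAA and a CCAAT match can share at most 1 base. A match is a description of the letters in this window.

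Promoters of 4 genes are shown 5′ to 3′ on the strand of the gene, 100 bases before and 50 after the start, with matches on either strand in capitals. They were picked to show a cyclin and an anaphase activator with both motifs on the gene's strand, a motor with both on the other strand, where they read TTCAAA and ATTGG, and Cdca5, which has TTTGAA at 2 places (first bases 17 and 9 before the start) and no CCAAT in this window. They lie at chr9:70421505-70421654 (minus), chr4:118437294-118437443 (minus), chr19:37376282-37376431 (plus) and chr19:6084997-6085146 (plus). The Cdca5 stretch lies within the first exon bin of the gene (chr19:6084983-6085208), as the RefSeq start used here differs from that of the bins.
Ccnb2: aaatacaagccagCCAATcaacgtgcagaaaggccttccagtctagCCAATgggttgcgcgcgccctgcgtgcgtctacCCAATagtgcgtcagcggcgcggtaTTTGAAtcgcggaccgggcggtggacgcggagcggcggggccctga
Cdc20: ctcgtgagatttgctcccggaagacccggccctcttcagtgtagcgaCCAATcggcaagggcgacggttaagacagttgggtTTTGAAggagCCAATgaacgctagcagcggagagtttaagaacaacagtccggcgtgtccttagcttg
Kif11: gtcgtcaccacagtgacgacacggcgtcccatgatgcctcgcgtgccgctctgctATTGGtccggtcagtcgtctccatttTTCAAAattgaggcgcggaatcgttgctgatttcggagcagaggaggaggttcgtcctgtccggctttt
Cdca5: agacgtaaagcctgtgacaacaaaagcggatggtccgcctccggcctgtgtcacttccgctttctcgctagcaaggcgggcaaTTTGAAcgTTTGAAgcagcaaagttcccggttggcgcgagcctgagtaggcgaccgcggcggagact

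At the exon level, 905 of the 1036 bins of the 41 genes passed the filter, and each bin was tested for a change relative to its own gene. The exception is Top2a, whose bins are joined with those of a neighbouring gene. Its bins were counted and tested as part of that joined set. The group with control siRNA and LPS enters with replicates 1 and 2 alone, since replicate 3 was not used here. Cdca5 was examined first. Of its 9 bins 6 were tested, none was called in any comparison, and the lowest unadjusted p was 0.294 (edgeR diffSpliceDGE). Bins 3 to 5, which lie inside an intron, were below the filter, with 5, 10 and 0 summed counts in control libraries, 1 and 0 with LPS, 18, 0 and 1 with SF3A1 siRNA, and 12, 12 and 0 with both. The libraries of a group ranged from 0 to 12 or more counts in both SF3A1 siRNA groups and overlapped those of control siRNA, and no test was made of these bins.

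Of all 905 bins, 3 were called with SF3A1 siRNA without LPS (0.331%, against a background of 0.497% of all bins tested that were called higher), all 3 higher and all in Aurkb, and 11 had an unadjusted p under 0.05 (1.22%, against 3.39% of all bins). With LPS 1 bin was called higher (background 0.381%), bin 16 of Aurkb, and 16 had an unadjusted p under 0.05 (1.77%, against 3.99%). LPS with control siRNA gave 0 calls with edgeR and 0 with limma (background 0.0801%; 6 at an unadjusted p under 0.05 with edgeR, 0.663% against 1.97%). Among the 21 tested bins of these genes that are introns kept in an annotated transcript, 1 was called without LPS (4.76%, against 4.47% of 4230 such bins in all genes).

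Aurkb lies on chromosome 11, plus strand, chr11:69045647-69051664 (mm10). Bin 16 is the whole intron between its exons 5 and 6, chr11:69048366-69048505, 140 bases with 57.9% G and C, which the annotated transcript Aurkb-205 retains. Bins 7 (chr11:69047726-69047784) and 27 (chr11:69050781-69050899) are the last parts of introns 2 and 8, of 1776 and 423 bases. Bin 12 (chr11:69048042-69048173), the whole intron between exons 4 and 5, was not called and is shown beside them. The sequences are given 5′ to 3′ with the last 20 bases, where the polypyrimidine tract and the AG of the 3′ splice site lie, and the GT of a whole intron in capitals; 16 of those 20 bases are C or T in bins 16 and 27, and 14 in bins 7 and 12.
Aurkb bin 16: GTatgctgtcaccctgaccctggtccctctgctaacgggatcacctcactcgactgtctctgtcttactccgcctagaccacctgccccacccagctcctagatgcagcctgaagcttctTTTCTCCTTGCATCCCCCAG
Aurkb bin 27: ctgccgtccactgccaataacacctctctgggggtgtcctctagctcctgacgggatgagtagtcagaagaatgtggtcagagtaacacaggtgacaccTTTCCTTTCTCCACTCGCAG
Aurkb bin 7: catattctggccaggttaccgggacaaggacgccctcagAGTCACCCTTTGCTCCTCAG
Aurkb bin 12: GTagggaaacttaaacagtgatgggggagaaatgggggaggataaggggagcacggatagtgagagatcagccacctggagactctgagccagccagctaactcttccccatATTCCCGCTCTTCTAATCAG

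Bin 16 held 18, 4 and 7 counts in control libraries, 1 and 1 with LPS, 21, 25 and 15 with SF3A1 siRNA, and 37, 15 and 13 with both, while the level of the gene itself fell. As a share of all Aurkb bin counts this was 0.137 ± 0.0517% in control libraries, 0.0532 ± 0.0270% with LPS (n = 2), 3.10 ± 1.45% with SF3A1 siRNA and 3.45 ± 0.792% with both (SD, n = 3). No control siRNA library reached any SF3A1 siRNA library. Its usage rose with SF3A1 siRNA without LPS (log2 change relative to the gene 3.02, edgeR diffSpliceDGE adjusted p = 6.78e-06) and with LPS (4.29, adjusted p = 6.92e-05). The ratio of summed shares was 16.5 without LPS, with an exact 95% interval of 10.46 to 26.7 for counting error, and 73.5 with LPS, with an interval of 19.5 to 619.7 since only 2 counts stood on the control side. Without control siRNA with LPS replicate 1, which leaves 1 library in that group, the change with LPS was 3.81 and was not called (adjusted p = 0.109).

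Bins 27 and 7 of Aurkb rose with SF3A1 siRNA without LPS by 1.97 (adjusted p = 0.00707) and 1.79 (adjusted p = 0.0272) relative to the gene, and their changes with LPS, 1.99 and 2.08, were not called (adjusted p = 0.114 and 0.126, edgeR diffSpliceDGE). Both were called with LPS under the replicate block, with changes of 1.79 and 2.08 (adjusted p = 0.0888 and 0.04002), at a minimum count of 20 (adjusted p = 0.0755 and 0.0783) and without control siRNA replicate 1 (0.0791 and 0.0982). Bin 27 alone of them was called without SF3A1 siRNA replicate 3 (adjusted p = 0.0987), without SF3A1 siRNA with LPS replicate 1 (0.0345) and with replicates 2 and 3 only (0.0648). With the block, 5 bins were called with LPS, bins 7, 16 and 27 of Aurkb and bins 15 and 16 of Aurka. Single libraries moved these counts. Without control siRNA replicate 1, bin 16 was the only bin called without LPS and 3 were called with LPS. Without SF3A1 siRNA with LPS replicate 1, bin 16 of Aurka was called beside bins 16 and 27 of Aurkb. Leaving out either control siRNA library with LPS keeps 1 library in that group, so those fits are not counted here. The counts under the block and with libraries left out stand without the share of all bins called in the same setting. All bins called with LPS rose as well under the block, from 756 to 1793. These counts are therefore not read as a result about the mitosis genes. Mean usage of bin 27 was 0.350 ± 0.183% in control libraries and 2.29 ± 0.228% with SF3A1 siRNA, and that of bin 7 was 0.354 ± 0.0789% and 2.21 ± 1.68%. Their summed counts, not scaled for depth, were 58 and 58 for bin 27 and 68 and 49 for bin 7. Those of all Aurkb bins went from 19568 to 2491. Unlike bin 16, bins 27 and 7 thus gained share of a falling total without a higher count. The other 3 of the 4 annotated retained introns of Aurkb, bins 5, 9 and 12, were not called. Bin 5, the first intron, made up 3.54 ± 1.34% of Aurkb counts in control libraries and 3.74 ± 1.70% with SF3A1 siRNA. Bins 24 to 26, earlier parts of intron 8, were below the filter and not tested. Their mean usage was 0.0916, 0.0205 and 0.0688% in control libraries and 0.925, 0.690 and 1.40% with SF3A1 siRNA. Most of the latter counts came from replicate 1 (47, 3 and 2 for bin 26).

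**Figure D5:**
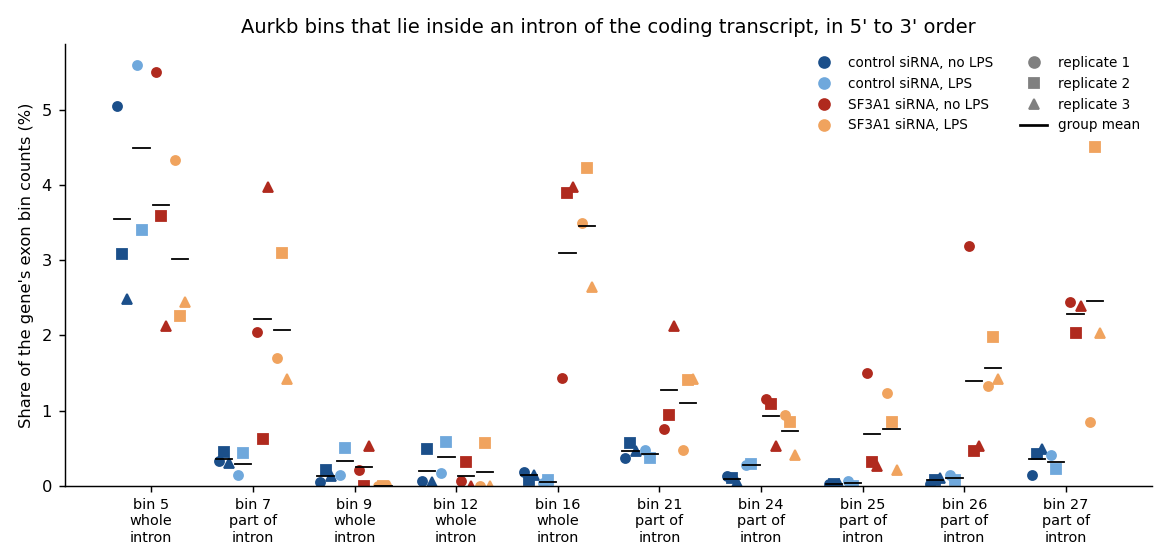
Share of all Aurkb bin counts (%) in each of 11 libraries for the bins that lie inside an intron of the coding transcript, from 5′ to 3′, with 1 symbol per library and lines at group means. Bin 16 is at or under 0.182% in all 5 control siRNA libraries and at 1.43 to 4.23% in all 6 SF3A1 siRNA libraries, while bins 9 and 12 are at or under 0.579% in every library.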

How the data were processed

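The 12 RAW264.7 libraries, in 4 groups of 3, were sequenced as single-end polyadenylated RNA. Per the submitters' notes, reads were mapped to mm10 with GSNAP and counted with HTSeq 0.5.4p. The authors deposited unnormalized counts of uniquely mapping reads per gene (12 libraries used here) and per exon bin (11 used here). Whether counting used strand is not given in the sources used here, so reads from overlapping antisense genes cannot be told apart. Reads outside genes, 17.8 to 27.2% of reads, and ambiguous reads, 0.431 to 0.530%, stayed out of library sizes.

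Gene counts were fitted with edgeR 4.0.16 (R 4.3.3) by the quasi-likelihood test over all 12 libraries, with TMM scaling and filterByExpr, and called at a Benjamini-Hochberg adjusted p of at most 0.1 over 14983 genes. Bins (153624 tested) went through edgeR's diffSpliceDGE. Bin coordinates were rebuilt from GENCODE vM21 for 281230 of 354841 bins and 38 of the 41 genes, not for Cdc20, Kif20a and Ect2. Symbols matched 36345 of 38215 gene IDs. Alternatives used limma 3.58.1, DESeq2 1.42.0, other scaling and filters, and each library left out; steps were tested on simulated data. Of the 41 genes, those with values per library were, for each comparison, up to 5 with the smallest adjusted p, and that with the highest CPM per kb in each role. Values per library are also given for Sf3a1 and Cdkn1a. As a rule, up to 2 genes per direction were named from each related list. A gene close to the pattern of the 41 is not reported here. No pair of replicates was within sampling noise (chi-square per degree of freedom 9.39 to 126). Libraries with the same replicate number deviated together (r = 0.135 to 0.681 in 18 pairs, median 0.457, against -0.613 to 0.448 in 36 other pairs). Among the other pairs, those of replicate 1 with 2 or 3 were all negative (-0.613 to -0.180). Those of replicate 2 with 3 were all positive (0.0486 to 0.448), so the split was mainly replicate 1 against the rest. The labels do not say why, and a block for the number was an alternative. The genes, roles and lists were chosen with earlier results of these data known.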

Additional observations from a re-analysis of the deposited data

Results flagged for a closer look

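The SF3A1 siRNA effect differed between the presence and absence of LPS, by the edgeR interaction test at an adjusted p of at most 0.1, for Cdca5 and for 16 of the 133 genes tested in the related lists (12%, against 3.47% of all genes). The log2 difference of Cdca5 was 1.26 (adjusted p = 0.0440). Among regulators of mitotic entry and of G2 and M genes it was 1.11 for Wee1, 1.20 for Rbl2, 1.79 for E2f2 and 1.88 for E2f8. For the CDK inhibitors it was -1.11 for Cdkn1a and 1.16 for Cdkn2c. For G1 cyclins and kinases it was 1.56 for Ccne1, 2.18 for Ccne2, 0.96 for Cdk2 and -3.80 for Ccnd2, whose level was 0.209 ± 0.246 CPM in control libraries, 9.31 ± 6.77 with LPS, 0.737 ± 0.272 with SF3A1 siRNA and 2.62 ± 1.28 with both (SD, n = 3). For replication genes it was 1.11 for Mcm4, 1.19 for Mcm7, 0.95 for Pcna, 1.30 for Gmnn, 1.11 for Gins3 and 0.82 for Rrm1. These comparisons share all 12 libraries, and adjusted p-values ran from 0.0134 (Cdkn1a) to 0.0967 (Wee1). With each library left out in turn, E2f2, Cdkn1a, Ccne2, Mcm4, Pcna and Gins3 were called every time, Gmnn was lost without 1 library, Cdk2 without 2 and Cdca5 without 5. Wee1, Rbl2, E2f8, Cdkn2c, Ccnd2, Ccne1, Mcm7 and Rrm1 were each lost without any 1 of 8 to 10 libraries, with adjusted p-values up to 0.241 (Wee1).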

How the results depend on the processing

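Of 5899 values of single genes and bins under alternatives, 5419 kept their direction and side of the threshold, 424 lost and 45 gained a call, and 11 changed sign. For the 41 genes, 40 to 41 were lower with SF3A1 siRNA without LPS and 38 to 40 with LPS when 1 library was left out, with 3881 to 5627 and 4744 to 5993 genes called in all. For LPS the ranges were 26 to 36 of the 41 genes (3985 to 5023 in all) with control siRNA and 2 to 23 (1050.0 to 2005) with SF3A1 siRNA. The interaction gave 0 to 1 of the 41 and 273 to 711 genes in all. Bins of the 41 genes numbered 1 to 6, 0 to 3 and 0 to 1, and all bins called 527 to 1131, 101 to 888 and 49 to 158, for SF3A1 siRNA without LPS, with LPS and for LPS with control siRNA.

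Among the other settings, LPS with SF3A1 siRNA lowered 20 of the 41 genes with no filter (background 2.53%), 14 with DESeq2 (4.95%) and 5 at an adjusted p of 0.05 (2.31%). It lowered 21 with replicates 2 and 3 only (6.68%) and 22 with library totals (8.19%). Genes with an interaction numbered 520 in the main model, 930 with no filter, 919 with DESeq2, 306 at 0.05 and 1012 with replicates 2 and 3 only. Bins of the 41 genes called with LPS were 3 at a minimum count of 20 and 2 with replicates 2 and 3 only. These counts, and the ranges for their bins above, are given without the share of all bins in each setting. None of them is read as a result about the 41 genes. In the other comparison, SF3A1 siRNA without LPS, 1466 bins in all were called with replicates 2 and 3 only. The replicate block, chosen as the paired analysis, gave 22 genes of the 41 (3115 in all) for LPS with SF3A1 siRNA, 1756 interactions, 5 bins of the 41 genes with LPS, and 2113, 1793 and 285 bins in all; it moved no other count beyond 1.5 times. It also called Kif20a, Incenp, Top2a and Aurka for LPS with SF3A1 siRNA (log2 -0.63, -0.49, -0.74 and -0.39). Not all of the 41 genes were followed singly in that comparison, and the 22 called include further genes not named here. Where a gene with values per library, or Cdca8, was followed singly, the block changed no call other than those given.

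Signs changed for genes near 0 that were not called, ranging as follows over the libraries left out. For LPS with control siRNA these were Pttg1 (-0.0553 without control siRNA with LPS replicate 3, -0.0042 without control siRNA replicate 1, up to 0.304; -0.0704 with library totals) and Cenpe (-0.687 to 0.108, the latter without control siRNA with LPS replicate 1). For LPS with SF3A1 siRNA they were Ube2c (-0.250 to 0.0653, the latter without SF3A1 siRNA replicate 1; 0.0762 with replicates 2 and 3 only) and Sf3a1 (-0.0194 without SF3A1 siRNA with LPS replicate 3, up to 0.380). For the interaction they were Ube2c (-0.0248 to 0.367), Kif20a (-0.0143 to 0.426), Top2a (-0.0994 to 0.389) and Tpx2 (-0.0882 to 0.360), the lowest in each case without control siRNA with LPS replicate 1. The causes were not tested. With library totals the median of all genes was -0.20 for LPS with control siRNA and -0.12 with SF3A1 siRNA, against -0.02 and 0.01 in the main model. The 41 genes' medians of -1.08 and -0.67 with library totals stand against those medians of -0.20 and -0.12.

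The 3 libraries per group limit all tests, and bins with few counts allow only wide intervals. A fit of the compared groups only cannot give the interaction. Replicates 2 and 3 only and library totals were chosen after seeing the data.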
